A study of Mus musculus with 3 samples.

Results

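The stretch of mouse chromosome 3 from 85 to 95 Mb was followed here in the MB49 bladder cancer cell line, where most insertions and deletions (indels) listed by the exome libraries were homozygous. Members were all indels that any of the 3 deposited lists placed on chromosome 3 with a start from 85000001 to 95000000. Entries were matched on chromosome, start, reference allele and alternative allele. The rule gave 695 distinct indels out of 23347 in all, against 1242 on the rest of chromosome 3 and 20854 on the other autosomes. The stretch was chosen by the deposited genotypes, as a window with a high share of homozygous entries, so every value of genotype inside it is a description and carries no test.

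MB49 is a cultured line from the bladder epithelium of a male mouse. Genomic DNA was captured for exons and sequenced as paired Illumina reads from the parental line, from a derived line labelled Y positive and from a derived line labelled Y negative, all kept in DMEM with serum. Each group was 1 library, so a difference between libraries has no replicate check and cannot be told apart from a difference between 2 preparations. The sample descriptions were MBN for Y positive and MBP for Y negative, which would run the other way if the letters N and P meant negative and positive. No label gives their meaning, and the genotype labels were used. Entries on the Y chromosome numbered 4 in the parental library, 9 in the Y positive library and 0 in the Y negative library.

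The lists held 11709 parental, 10334 Y positive and 12465 Y negative indels, with median depths of 9, 13 and 7 reads per entry. Their summed depths lay between 317111 and 329187 reads. The file coordinates reach 197068017 on chromosome 1 and 152408095 on chromosome 7, past the last GRCm38 (mm10) genes at 195291439 and 145324059, so they are not those of mm10. The submitters' processing notes name mm9 as the only other build. Transcripts are given by the Ensembl identifier printed first, without gene symbols. No annotation of the build was at hand, and 0 of the 21975 identifiers occurred in the GRCm38 gene list used above.

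An indel is a gain or loss of bases relative to the reference genome. A homozygous indel is found on every copy of the chromosome present in the cells, and nearly all reads then lack the reference allele. A heterozygous indel is found on some copies, and reference reads remain. In coding sequence an indel whose length is a multiple of the codon length adds or removes whole residues, while any other length shifts the reading frame.

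The sequences below are the alleles that the results turn on, read on the plus strand, with added or removed bases in capitals and the preceding base in lower case where it is shown. The first set holds the longest homozygous deletions and insertions of up to 30 bases, 2 of each, with 1 of 2 equally long 15-base insertions shown. All had 20 or more reads and no reference read in any library, and they show what the stretch shares between lines.
chr3:86152726-86152752 deletion: gTTCAAGTGGAAGCACCTATTACTAAAA
chr3:92541795-92541824 deletion: CTGCCACAGCAGCCACCACTGCCACCACTG
chr3:90027829-90027829 insertion: cCTGAAGGGTATTGGG
chr3:90039176-90039176 insertion: gCTACAGACTAACTAGA

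The second set shows repeated sequence within the stretch. A 30-base coding insertion had 28 of 30 bases identical to the intergenic 30-base deletion above, whose start lay 51.2 kb before it. Removed bases were identical in a pair of 12-base coding deletions that started 39 bases apart.
chr3:92592999-92592999 insertion: CTGCCACAGCAGCCACTGCTGCCACCACTG
chr3:92822189-92822200 deletion: aCTGCTGCCACCG
chr3:92822228-92822239 deletion: aCTGCTGCCACCG

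The third set holds 3 of the members whose deposited genotype differed between libraries. The deletions are runs of T ending in 1 other base, and the insertion is 6 copies of AC.
chr3:88442303-88442310 deletion: tTTTTTTTA
chr3:89973155-89973155 insertion: tACACACACACAC
chr3:90539331-90539345 deletion: tTTTTTTTTTTTTTTG

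The stretch held 436 of the 1054 chromosome 3 entries in the parental library (41.4%), 382 of 899 in the Y positive library (42.5%) and 438 of 1089 in the Y negative library (40.2%). Among 504 overlapping autosomal windows of 10 Mb, set at steps of 5 Mb, it ranked 1 by number of distinct indels, with 695 against a median of 65. The overlapping window from 80 to 90 Mb held 622, and the window from 40 to 50 Mb on chromosome 11 held 539. The 3 libraries therefore placed the same crowded window first, although many of its entries rested on few reads. Median depth of the members was 10 reads in the parental library, 14 in the Y positive library and 10 in the Y negative library. Entries with fewer than 5 reads made up 36.7% of members in the parental library, 25.7% in the Y positive library and 39.0% in the Y negative library. For this reason genotypes are given at a depth of at least 20 reads unless stated.

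At that depth 139 of 168 entries were homozygous in parental (82.7%, exact 95% interval 76.2 to 88.1). The Y positive library had 133 of 170 (78.2%, 71.3 to 84.2). The Y negative library had 125 of 167 (74.9%, 67.6 to 81.2). On the rest of chromosome 3 the shares were 30.3%, 33.1% and 29.6%, and on the other autosomes 24.6%, 24.6% and 23.7%. The windows ranked 2 and 3 by number of distinct indels had higher shares than the stretch in each library. The overlapping window on chromosome 3, ranked 2, had 87.4%, 86.5% and 87.3%. The window on chromosome 11, ranked 3, had 89.0%, 87.9% and 84.1%. Windows of lower rank lay both above and below the stretch, so a high share was not particular to it. The value for the rest of the chromosome mixes unlike parts. Between 74618667 and 95699358, limits read from the homozygous sites described with the borders, entries outside the stretch were homozygous in 48 of 66, 52 of 65 and 47 of 62 cases. Beyond those limits they were homozygous in 9 of 122 (7.38%), 8 of 116 (6.90%) and 6 of 117 (5.13%). The remaining entries in the stretch were 23, 27 and 24 heterozygous ones and 6, 10 and 18 entries with 2 alternative alleles. A site with 2 alternative alleles is printed as 2 entries and often has no reference read, so sites were also counted by reads. The reference allele took at most 0.1 of the reads at 143 of 165 sites in the parental library, 137 of 165 in the Y positive library and 131 of 158 in the Y negative library. Counted that way the shares were 86.7%, 83.0% and 82.9%, and the spread between the libraries was smaller. The rest of chromosome 3 gave 33.5%, 36.0% and 32.9%.

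**Figure D1:**
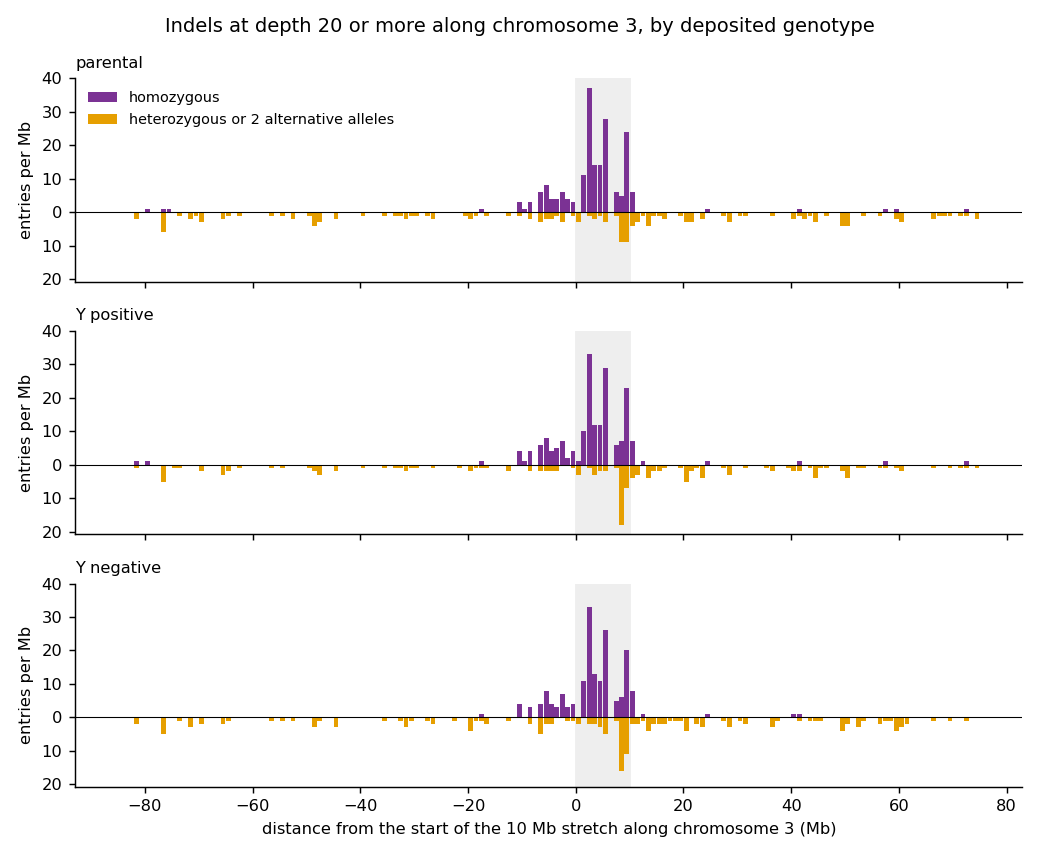
Entries at depth 20 or more per 1 Mb along chromosome 3, with homozygous entries drawn upward and other entries downward, for 1 library per panel. The grey band is the 10 Mb stretch, and in each library its tallest homozygous bars stand 2, 5 and 9 Mb from its start, while bars pointing down are tallest 8 Mb from its start in Y positive and Y negative.

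Homozygous entries were spread unevenly within the stretch. The megabase from 87 to 88 Mb held the most distinct indels, 153, and its entries at depth 20 or more were homozygous in 37 of 38 cases in the parental library, 33 of 34 in the Y positive library and 33 of 35 in the Y negative library. The megabase from 90 to 91 Mb held the next most homozygous deep entries, 28 of 31, 29 of 31 and 26 of 31. All deep entries from 86 to 87 Mb were homozygous, 11 of 11, 10 of 10 and 11 of 11. These megabases were thus nearly free of deep heterozygous entries in the 3 lines. From 91 to 92 Mb only 2 distinct indels were listed, none of them at depth 20.

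A change of genotype mix lay near 93 Mb. Taking 1 entry per site, and with the limits at 93 and 94 Mb chosen after the values were seen, homozygous sites below 93 Mb numbered 110 of 119 in the parental library, 103 of 111 in the Y positive library and 99 of 109 in the Y negative library. Between 93 and 94 Mb they numbered 5 of 14, 7 of 25 and 6 of 20. Between 94 and 95 Mb they numbered 24 of 32, 23 of 29 and 20 of 29. The share in the first piece was 92.4%, 92.8% and 90.8%, while in the middle piece it was at most 35.7%. The order of the pieces was the same in all 3 libraries, with the middle piece lowest. Sites a few bases apart were counted separately and were not merged here. Several heterozygous sites of the middle piece lay that close together, as near 93576757 and 93631067 in Y positive. The counts of that piece are therefore not counts of separate places.

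**Figure D2:**
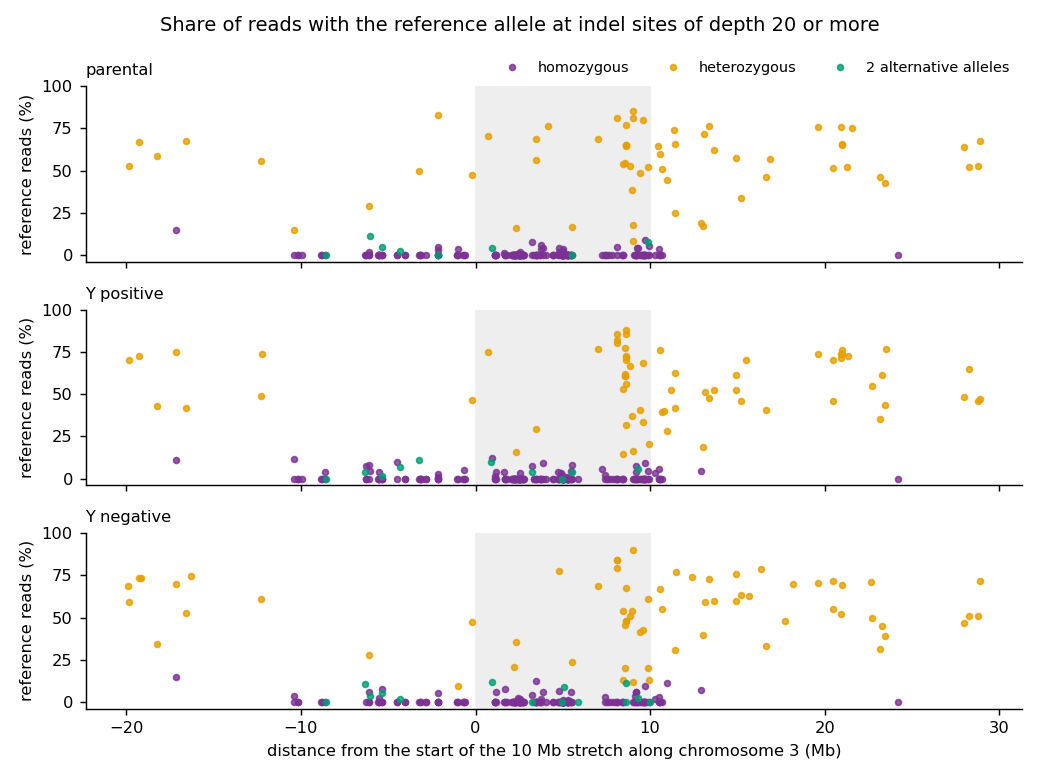
Share of reads with the reference allele (%) at each indel site of depth 20 or more, against distance from the start of the stretch in Mb, for 1 library per panel and with colours for the deposited genotype. Within the grey band most points sit at or near 0%, the points of intermediate share gather 8 to 9 Mb from its start, and sites near 0% also extend to about 10 Mb before the band and within 1 Mb past it. Farther past the band single homozygous sites stand 12.9 Mb (Y positive and Y negative) and 24.2 Mb (all 3 libraries) from the start of the stretch.

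The borders were read from indels deposited as homozygous at depth 20 or more in all 3 libraries. Chromosome 3 had 158 of these, 115 inside the stretch, 35 below it and 8 above it. Below 65 Mb there were 0, between 65 and 72 Mb there was 1, and between 72 and 85 Mb there were 34. The 1 at 67851017 had alternative shares of only 0.85, 0.889 and 0.85, and the next followed 6.77 Mb later at 74618667. Above the stretch 6 lay between 95 and 97 Mb, the last of them at 95699358. The next were 109227053, 13.5 Mb farther, and 126715711. Sites homozygous in every library thus ran from 74618667 to 95699358 with gaps of at most 2.33 Mb, so the limits at 85 and 95 Mb cut a longer segment and are not its ends.

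At the lower limit, the nearest deep entries outside were a 1-base deletion at 84399512 and a 1-base insertion at 84771305. The deletion was homozygous with 107, 124 and 105 reads and no reference read. The insertion was heterozygous with 22 of 42, 29 of 54 and 22 of 42 reads carrying it. Just inside, a 1-base deletion at 85720088 was heterozygous in parental with 32 of 109 reads and in Y positive with 25 of 99, and it was not in the Y negative list. The first member homozygous in all 3 was at 86114542. Both genotypes therefore occurred on each side of the limit.

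At the upper limit the last member homozygous in all 3 was at 94932178. The last member of all, at 94968465, had 2 alternative alleles in Y positive and Y negative and was not in the parental list. Just outside, a 4-base insertion at 95284585 was homozygous with 62 of 62, 61 of 63 and 51 of 52 reads. A 1-base insertion at 95426733 was heterozygous in parental, 13 of 37 reads, and was in neither other list. Homozygous sites again lay on both sides.

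Runs without any interruption were much shorter than the segment. The longest in parental held 41 consecutive homozygous sites from 89456167 to 90539324, a span of 1.08 Mb. A heterozygous deletion at 89162855 preceded it (7 of 30 reads) and a heterozygous deletion at 90539331 followed it (20 of 24 reads). In Y positive the longest run held 29 sites over 0.565 Mb, from 89974653 to 90539331, between sites with 2 alternative alleles at 89973155 and 90542807. In Y negative it held 23 sites over 0.451 Mb, from 87331109 to 87782080, between a heterozygous insertion at 87331087 (42 of 65 reads) and a site with 2 alternative alleles at 88253873. Both sites that ended the Y positive run and the right end of the Y negative run had at most 1 reference read. When sites with a reference share of at most 0.1 were counted in place of deposited homozygotes, the longest runs were 41 sites in the parental library, 52 in the Y positive library (2.44 Mb) and 33 in the Y negative library (0.735 Mb). The lengths of runs, and which library had the longest, thus depended on how sites with 2 alternative alleles were counted.

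The 115 members that were homozygous at depth 20 or more in every library are the core of the stretch. Their median depth was 57 reads in the parental library, 56 in the Y positive library and 57 in the Y negative library. Reference reads made up 32 of 7896 (0.405%), 34 of 7749 (0.439%) and 40 of 7806 (0.512%). Of the 115, 88 had no reference read in any library. The lowest alternative share at any of them was 0.912, 0.906 and 0.903. Reference reads occurred at 21 of the 46 single-base members and at 6 of the 69 longer ones. The corresponding 689 indels of the other autosomes had 1.63%, 1.48% and 1.73% reference reads.

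Of the 131 members with depth 20 or more in all 3 lists, 124 had the same genotype in each (94.7%, exact 95% interval 89.3 to 97.8). They were the 115 homozygous members and 9 heterozygous ones, and 7 differed. The rest of chromosome 3 gave 103 of 109 (94.5%) and the other autosomes 2017 of 2145. Among indels listed at that depth in all 3 libraries, the genotype was therefore the same at a similar rate inside and outside the stretch. The genotype mix differed, with 689 homozygous and 1253 heterozygous indels on the other autosomes. Indels missing from a list are left out of this comparison. Where the highest depth was 20 or more, 80.2% of members were in all 3 lists. The rest of chromosome 3 gave 51.6% and the other autosomes 47.3%.

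The 9 members that were heterozygous in all 3 libraries lay mostly between 93 and 95 Mb, where 7 of them started. A single G insertion at 87331087, in an exon of the noncoding transcript ENSMUST00000136680, was carried by 62 of 74 reads in the parental library, 48 of 57 in the Y positive library and 42 of 65 in the Y negative library. A single T deletion at 92031323, in an intron of ENSMUST00000090871, had 13 of 42, 9 of 39 and 11 of 35. These were the only such members below 93 Mb.

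Past 93 Mb, the intergenic 6-base deletion at 93087545 had 29 of 156, 15 of 106 and 29 of 141 reads. The same 6 bases were inserted 41 bases farther on, at 93087586, where the insertion was homozygous with 101 of 106, 75 of 75 and 95 of 95 reads. Deep and even counts were seen for an intergenic 2-base insertion at 93433142, with 288 of 629, 292 of 622 and 290 of 631 reads. That site had the steadiest share of the 9, near equal numbers of reads for both alleles in all 3 lines.

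A 57-base deletion at 93576757, upstream of ENSMUST00000090853, had 16 of 35, 8 of 35 and 25 of 46 reads. A 2-base deletion at 93854156, upstream of ENSMUST00000094413, had 58 of 123, 38 of 113 and 63 of 128. A T deletion at 93980590, in an intron of ENSMUST00000161475, had 24 of 39, 24 of 38 and 17 of 37. The first 2 of these were lowest in Y positive and the third was lowest in Y negative. At the 57-base deletion, Y positive alone also listed 3 shorter deletions inside or beside it, with 11 reads each. The part they have in its share was not tested. A T insertion at 94408281 had 32 of 62, 32 of 54 and 35 of 60 reads, and the ninth member, at 93631067, is described with the tests.

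Among the 7 members whose genotype differed, 2 differed in the alternative alleles. The single T insertion at 85920828 had 2 alternative alleles in parental and Y negative and was homozygous in Y positive, with 4 of 96, 10 of 83 and 13 of 111 reference reads in the order parental, Y positive, Y negative. The AC insertion at 89973155 was homozygous in parental and had 2 alternative alleles in both others, with no reference read in any. Reference reads were few at the first and absent at the second.

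The other 5 crossed between heterozygous and homozygous. The 15-base deletion at 90539331 had 20 of 24, 22 of 24 and 16 of 21 reads and was homozygous in Y positive alone. The G insertion at 94035887 had 21 of 23, 26 of 31 and 22 of 22 and was homozygous in Y negative alone. The 3-base deletion at 94040576 had 28 of 34, 24 of 24 and 22 of 25, and the A insertion at 94922995 had 35 of 37, 27 of 34 and 34 of 39. In these 4 the share of reads with the indel was at least 0.762 in every library, so the genotypes differed by a few reference reads. The fifth, the 8-base deletion at 88442303, had a wider spread and is given next.

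**Figure D3:**
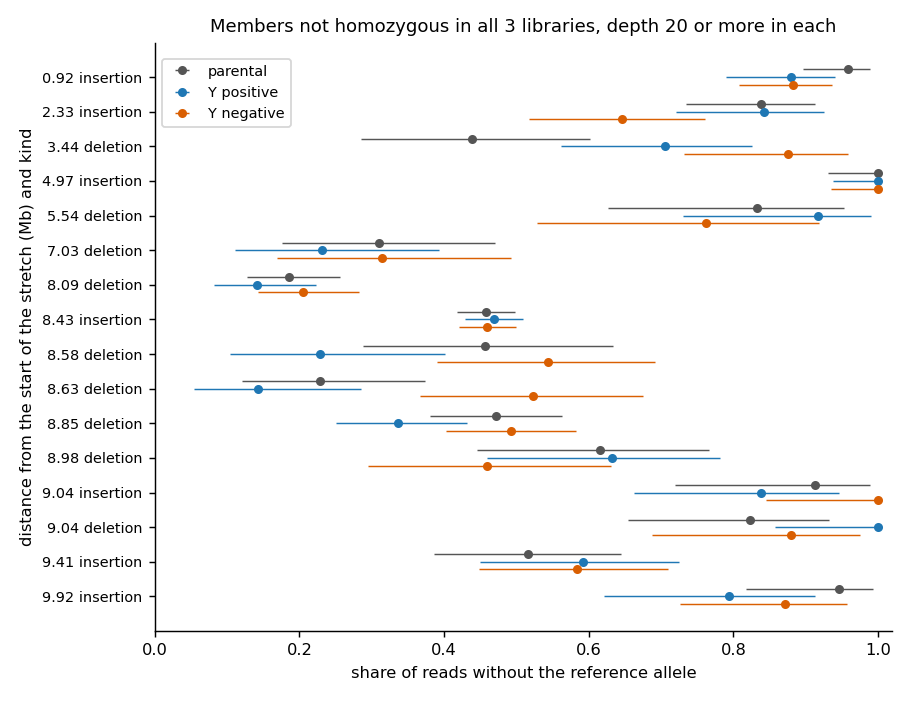
Share of reads without the reference allele at the 16 members with depth 20 or more in all 3 libraries that were not homozygous in each, with exact 95% intervals for counting error, labelled by distance from the start of the stretch in Mb. Points of the 3 libraries mostly overlap within their intervals, and the deletions 3.44 and 8.63 Mb from the start show the widest separations.

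The share of reads with the indel was compared between libraries at sites with 1 alternative allele and at least 20 reads in both, by a two-sided Fisher exact test with Benjamini-Hochberg adjustment over all such sites of the exome. This compares the reads of 2 libraries, not the lines. For Y negative against Y positive, 1 of 136 members was called at an adjusted p under 0.05, beside 0.794% of the 2645 sites tested. For Y positive against parental 0 of 141 members were called, beside 0.874% of 2745 sites, and 4 members had an unadjusted p under 0.05. For Y negative against parental 1 of 136 was called, beside 0.302% of 2651 sites. Members with an unadjusted p under 0.05 made up 3.68%, 2.84% and 2.21% in the 3 comparisons, against 6.20%, 6.23% and 5.47% of all sites. Most members were homozygous in both libraries, so these are not like sets of sites. Among the members that were not, 4 of 20, 3 of 17 and 3 of 16 had an unadjusted p under 0.05.

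The member called between the derived lines was the 3-base CAA deletion at 93631067, downstream of ENSMUST00000081780. Reads with the deletion were 11 of 48 in the parental library, 6 of 42 in the Y positive library and 23 of 44 in the Y negative library. The Y negative share was the highest. Overlapping repeats of the same 3 bases were listed differently in the libraries. A CAA deletion at 93631073 was heterozygous in parental (13 of 37 reads) and Y positive (10 of 36) and was not in the Y negative list. The Y negative list instead had 2 alternative alleles here, a 6-base deletion at 93631073 and a 3-base deletion at 93631076, with 5 of 45 reads for the reference. The part this has in the difference was not tested. The difference of 0.38 in allele share between Y negative and Y positive had an adjusted p of 0.0325 by Fisher exact test. Without single-base A or T indels in the family of tests the adjusted p was 0.0624, and it ranged from 0.0210 to 0.0624 over the alternatives.

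The member called between Y negative and parental was the 8-base deletion at 88442303, in an intron of ENSMUST00000029694. It was carried by 18 of 41 reads in the parental library, 36 of 51 in the Y positive library and 35 of 40 in the Y negative library. Parental was lowest and Y negative highest. The difference of 0.44 had an adjusted p of 0.0225 by Fisher exact test, ranging from 0.0186 to 0.0308 over the alternatives. A 9-base deletion starting 1 base earlier, at 88442302, was listed in parental alone, with 13 of 42 reads. Reads of the parental library at this run of T were thus split between 2 overlapping entries, and the part this has in the difference was not tested. The smallest adjusted p of any member for Y positive against parental was 0.453 by Fisher exact test, at the same deletion.

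Depth, which the rule did not use, was compared at the 236 members listed in all 3 libraries with 1 alternative allele, as log2 ratios after adding 0.5 reads and centred on the autosomal median. The median ratio of Y negative to Y positive was 0.00, with an order-statistic 95% interval over sites from -0.09 to 0.05. It was -0.02 (-0.07 to 0.00) when Y positive was set over parental and -0.03 (-0.10 to 0.03) when Y negative was. On the rest of chromosome 3 the medians were -0.11, 0.00 and -0.03. Scaled by summed depth in place of the median, the Y negative ratios were -0.05 over Y positive and -0.09 over parental, with intervals below 0. All medians of the stretch were within 0.1 of 0, while a loss of depth that removed an indel from a list was not measured.

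Single members did depart from that. Depths were compared at the 158 members with 1 alternative allele that every library listed, with at least 20 reads in at least 1. The median log2 of highest over lowest depth was 0.388, and 12 exceeded 1. The largest value, 3.38, belonged to a 78-base coding insertion at 93007207 with 11 reads in the parental library, 90 in the Y positive library and 119 in the Y negative library, none of them reference reads. A 3-base deletion at 90293547 had 20, 52 and 49 reads, and a 2-base insertion at 87545626 had 39, 16 and 43. The low library was parental in the first 2 cases and Y positive in the third.

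Sharing of the members between lists rose with depth. Of the 695, 244 were in all 3 lists (35.1%, exact 95% interval 31.6 to 38.8), 73 in 2 and 378 in 1. Where the highest depth was below 5 reads, 7 of 339 were in all 3 (2.06%). At 5 to 19 reads 71 of 149 were (47.7%, 39.4 to 56.0), and at 20 or more reads 166 of 207 were (80.2%, 74.1 to 85.4). Matching values on the rest of chromosome 3 were 0.971%, 28.5% and 51.6%, and on the other autosomes 0.641%, 20.8% and 47.3%. At each depth the share was higher in the stretch, which was chosen for its homozygous entries.

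**Figure D4:**
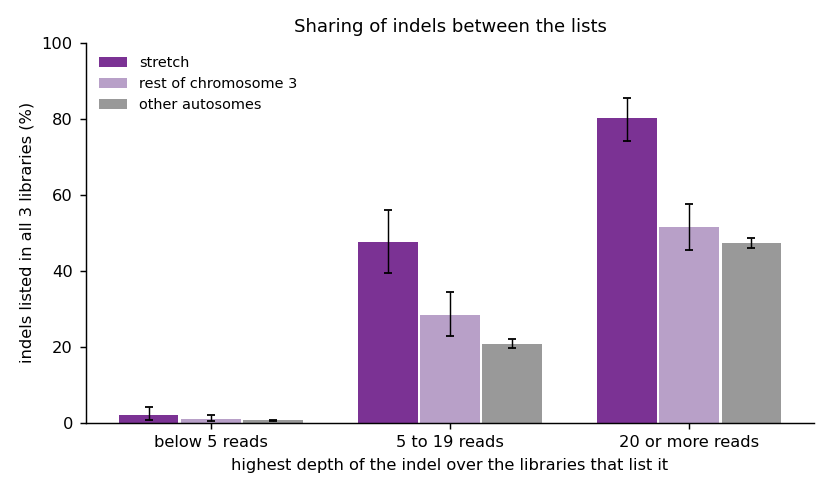
Percentage of indels listed in all 3 libraries by the highest depth of the indel, with exact 95% intervals, for the stretch, the rest of chromosome 3 and the other autosomes. In the stretch the bars reach 2.06%, 47.7% and 80.2% as depth increases, each above the bars of the 2 other groups.

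Among deep homozygous entries the gap was small. Homozygous members with 20 or more reads were in all 3 lists in 98.6% of cases in the parental library, 99.2% in the Y positive library and 99.2% in the Y negative library. The shares were 98.2%, 98.3% and 98.1% on the rest of chromosome 3 and 95.1%, 95.7% and 95.3% on the other autosomes. On the rest of chromosome 3, 48, 52 and 47 of these entries lay in the longer segment, and 9, 8 and 6 beyond it. Heterozygous members at that depth were shared in 14 of 23, 15 of 27 and 17 of 24 cases. Homozygous entries below 5 reads were in all 3 lists in 13.5%, 14.6% and 13.1% of cases, against 4.26%, 8.77% and 4.98% on the rest of chromosome 3. Deep homozygous members were therefore found again in nearly every list, and shallow ones rarely.

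Entries private to 1 list numbered 137 in the parental library, 88 in the Y positive library and 153 in the Y negative library, each set with a median depth of 2 reads. At 20 or more reads 8, 6 and 6 remained. Heterozygous ones among these were 5 in the parental library, 5 in the Y positive library and 3 in the Y negative library, with median alternative shares of 0.233, 0.379 and 0.390. In Y positive 3 of the 5 were deletions of 19, 1 and 27 bases starting between 93576747 and 93576773, each with 11 reads, inside or beside the 57-base deletion described above. They lie close enough to share reads, and whether they are the same reads was not tested. The fourth was the coding insertion at 93600844, and the last a 1-base deletion at 94565201 with 11 of 35 reads.

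The files placed 275 members in introns, 177 between genes, 117 in introns and 31 in exons of noncoding transcripts, 28 downstream and 23 upstream of genes, 21 in 3′ and 3 in 5′ untranslated regions, and 15 in coding sequence. The 518 members outside intergenic sequence were assigned to 172 transcripts by first identifier. Intergenic members fell from 25.5% of all to 6.28% of those with 20 or more reads in at least 1 library. Of the 115 core members 55 were intronic, 29 in introns of noncoding transcripts, 6 coding and 5 intergenic.

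By first identifier, the transcript with the most members was ENSMUST00000082226, with 27 from 86039816 to 86153111. Of these, 18 were listed in the parental library, 23 in the Y positive library and 17 in the Y negative library. Every one of these entries was homozygous, at median depths of 12.5, 8 and 10 reads. The noncoding ENSMUST00000136072 had 23, from 87422125 to 87501580, listed 13, 15 and 13 times and again homozygous throughout. Counted under any printed identifier, the noncoding ENSMUST00000142799 also had 27, from 87422125 to 87519738. ENSMUST00000029548 had 22 with the best coverage, 28, 44 and 41.5 reads in the median. Its entries were homozygous in 16 of 16, 12 of 15 and 14 of 16 cases. Y positive had 1 heterozygous entry, and the remaining entries of both derived lists had 2 alternative alleles. A different picture was given by ENSMUST00000154148, whose 17 members near the lower limit stood in the parental list with 11 entries, in the Y positive list with 0 and in the Y negative list with 8, at no more than 6 reads each. Its homozygous calls therefore rest on almost no reads.

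By kind, the core members were often long. Indels of 5 or more bases made up 35 of 115 (30.4%, exact 95% interval 22.2 to 39.7), against 119 of 689 homozygous indels of the other autosomes (17.3%, 14.5 to 20.3). Single-base A or T indels made up 29 of 115 (25.2%, 17.6 to 34.2), against 32.8% (29.3 to 36.4). Insertions made up 48 of 115 (41.7%, 32.6 to 51.3), against 42.7%. Homozygous indels of the rest of chromosome 3, 43 in number, had 16.3% of 5 or more bases and 44.2% single-base A or T. Of these, 34 lay between 72 and 85 Mb and 6 between 95 and 97 Mb. Most thus belonged to the longer segment that the stretch cuts and are not an outside group. Heterozygous indels of the other autosomes, 1253 in number, were composed otherwise, with 5.19% of 5 or more bases, 58.9% single-base A or T and 19.9% insertions. The share of insertions in the core was thus close to that of homozygous indels on the other autosomes. Its share of long indels was above both other groups, with intervals that did not overlap for the other autosomes and overlapped for the rest of chromosome 3. Neighbouring members are not independent: 233 of the 695 lay within 100 bases of another, and the 115 formed 105 groups at that distance.

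**Figure D5:**
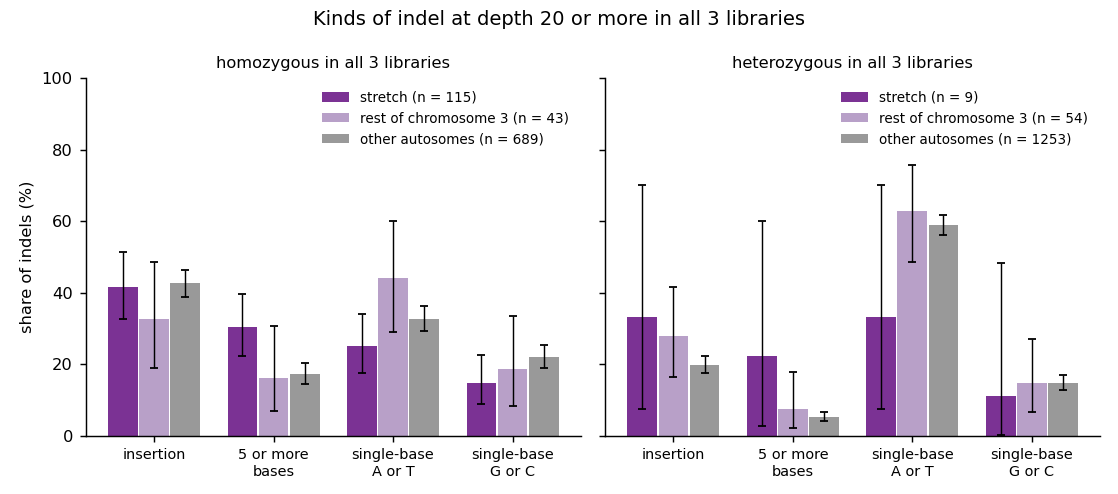
Percentage of indels of each kind, with exact 95% intervals, among those with the same genotype in all 3 libraries at depth 20 or more, for homozygous indels on the left and heterozygous ones on the right. On the left the stretch has 30.4% of 5 or more bases against 17.3% on the other autosomes, and on the right its 9 indels leave wide intervals.

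The longest core deletions had 36, 30 and 27 bases. The 36-base one at 90016475, downstream of ENSMUST00000029548, had 64 reads in the parental library, 68 in the Y positive library and 47 in the Y negative library. The 30-base one at 92541795, between genes, had 25, 24 and 26. The longest core insertions had 42, 16 and 15 bases, and the 16-base one at 90039176 had 87, 103 and 74 reads while the 15-base one at 90027829 had 46, 67 and 58. No read at any of these had the reference allele.

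Of the 15 coding members 14 kept the reading frame and 1 shifted it. At depth 20 or more in-frame entries were 6 of 6 in the parental library (exact 95% interval 54.1 to 100%), 9 of 10 in the Y positive library (55.5 to 99.7) and 9 of 9 in the Y negative library (66.4 to 100). On the other autosomes they were 29 of 136, 23 of 140 and 27 of 142, at most 21.3%, and on the rest of chromosome 3 2 of 4, 2 of 5 and 1 of 4. The in-frame share of the members was above that of the other autosomes in each library, but most deep coding members were homozygous. Among homozygous coding entries alone, in-frame ones were 6 of 6, 7 of 7 and 7 of 7 in the stretch. On the other autosomes they were 15 of 39 (38.5%, 23.4 to 55.4), 14 of 39 (35.9%, 21.2 to 52.8) and 14 of 40 (20.6 to 51.7). The intervals overlapped in the parental library, where that of the stretch began at 54.1%, and the 3 libraries share most of these sites.

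There were 6 coding members homozygous at 20 or more reads in all 3 libraries, and no read at any of them had the reference allele. The 27-base deletion at 86152726, printed above, removes 9 codons in exon 23 of ENSMUST00000082226, around residues 1151 to 1160, and had 147 reads in the parental library, 159 in the Y positive library and 193 in the Y negative library. The 42-base insertion at 92628259 adds 14 codons in exon 2 of ENSMUST00000072363 and had 151, 119 and 151. The remaining 4 each changed 1 codon.

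These were a deletion at 87247595 in exon 4 of ENSMUST00000049926 (150, 143 and 151 reads) and an insertion at 87735633 in exon 2 of ENSMUST00000055984 (108, 96 and 71 reads). An insertion at 87782080 lay in exon 4 of ENSMUST00000090973 (52, 53 and 39 reads), and a deletion at 90145841 in exon 1 of ENSMUST00000049382 (85, 85 and 105 reads). All 6 were thus the same in the parental and derived lines.

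Shallower coding members were a 9-base deletion at 92376224 in ENSMUST00000053107, carried by 8 of 8, 15 of 16 and 9 of 9 reads, and the 78-base insertion at 93007207 in ENSMUST00000098884, which adds 26 codons. The 30-base insertion at 92592999 in ENSMUST00000107304 had 3, 3 and 0 reads and was deposited as homozygous in all 3 lists. Its genotype in Y negative has no read behind it. The pair of 12-base deletions in ENSMUST00000029520 was listed in Y positive alone with 3 of 3 reads each, and a 3-base deletion at 89126721 in ENSMUST00000029673 in parental alone with 3 of 9.

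Coding members that were heterozygous at depth lay between 93 and 94 Mb. A pair of 6-base deletions in exon 1 of ENSMUST00000050758 was in both derived lists and not in the parental one. The one at 93096619 had 13 of 72 reads in the Y positive list and 14 of 87 in the Y negative list. The one at 93096651 had 15 of 75 and 15 of 94. The shares lay between 0.160 and 0.200 in the derived libraries, and absence from the parental list is not a measured reference genotype. The only frameshift, a 4-base insertion at 93600844 in exon 1 of ENSMUST00000075953, was in the Y positive list alone, with 86 of 709 reads. This was the deepest site of the stretch in any library. Its alternative share of 0.121 was the lowest among the deep heterozygous entries of the stretch in the Y positive library.

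The 2 members at splice sites were both homozygous in all 3 libraries. A single C insertion at 86792275, at a splice site of ENSMUST00000041920, had 156, 166 and 125 reads. A 2-base insertion at 93455535, at a splice site of the noncoding ENSMUST00000071173, had 47, 52 and 27. No reference read was counted at either.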

How the data were processed

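Each deposited file listed 1 library's indels with whole-number read counts made by the authors: the depth and the reads of each allele. Reads were handled with BWA and Picard, per the submitters' processing notes, which give no versions. The variant caller is not given in the sources used here. From these counts the alternative share, sharing between lists, runs and depth ratios were computed with Python 3.11.15, pandas 2.3.3, NumPy 2.4.6 and SciPy 1.17.1, and drawn with matplotlib 3.10.9. Intervals are exact (Clopper-Pearson) at 95%. Without molecular identifiers, intervals and tests speak of counting error alone. Fisher exact tests per site were two-sided, adjusted by Benjamini-Hochberg over all sites that a pair of libraries could test, and were tested on simulated data. Named indels were the coding and splice-site members, those heterozygous in all 3 libraries, those whose allele share differed, the 3 longest homozygous deletions and insertions and the entries beside the borders. Others were named after their values were seen. The members and lists were chosen with earlier results of these data known. Alternatives varied the depth minimum, the homozygosity rule, the indel kinds and the matching between lists. An indel that a list lacks was not counted as a reference genotype.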

Additional observations from a re-analysis of the deposited data

How the results depend on the processing

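Of 89 alternatives over 25 results, 64 kept the value within its error or count limit and 25 moved it. Whether an alternative reversed a direction was not scored. Counting only entries listed in all 3 libraries, the homozygous share in the stretch was 89.0% (parental), 88.6% (Y positive) and 84.4% (Y negative), against 42.4%, 46.5% and 44.4% on the rest of chromosome 3, and the longest Y negative run was 46 sites. With no depth minimum it was 85.4% in Y negative, against 62.6%, 57.8% and 69.3% on the rest of chromosome 3. Y positive gave 86.6% in the stretch at a minimum of 40 reads, and 41.1% on the rest of chromosome 3 without single-base A or T indels. Y negative gave 83.2% where homozygous meant an alternative share of at least 0.9, and 82.9% by a reference share of at most 0.1. That last setting, chosen after seeing the data, gave a longest Y positive run of 52 sites. Without single-base A or T indels 0 members differed between Y negative and Y positive by Fisher exact test, because the adjusted p at 93631067 was 0.0624. Scaling by summed depth gave log2 depth ratios of 0.0055 for Y positive over parental, -0.05 (-0.15 to -0.00048) for Y negative over Y positive and -0.09 (-0.16 to -0.03) for Y negative over parental, so that the last 2 intervals lay below 0. Members numbered 356 at 5 or more reads in at least 1 library. At 20 or more reads in at least 1 library 80.2% were in all 3 lists and 6.28% were intergenic. Private heterozygous entries were 9 in parental and 6 in Y negative at a minimum of 10 reads, and 3 in parental and 1 in Y positive at a minimum of 40. The cause of these changes was not tested. No paired analysis was possible because the labels carry no replicate numbers and each group has 1 library. Depth is 1 limit: with fewer than 5 reads an allele on some copies can go uncounted.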
